A study of Homo sapiens with 6 samples.

Results

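The oxygen-sensing arm of the hypoxia response was examined in BxPC-3 tumors after oral DFX (deferasirox, an iron chelator). The set consisted of 10 genes of the 34423 gene names on the array. They were the prolyl hydroxylases EGLN1, EGLN2 and EGLN3, the asparaginyl hydroxylase HIF1AN, the α subunits HIF1A, EPAS1 and HIF3A, their dimerization partners ARNT and ARNT2, and VHL. Members were taken by symbol, and every probe carrying one of these symbols was kept. This gave 15 probes, 1 for each of 6 genes, 2 each for EGLN3, HIF1A and ARNT2, and 3 for HIF3A.

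BxPC-3 is a human pancreatic adenocarcinoma cell line. In both groups the cells had been grown as subcutaneous xenografts in young adult female BALB/c nude mice, which lack mature T cells. The Control group comprised 3 tumors from mice that received the vehicle, and the DFX group comprised 3 tumors from mice dosed orally with 200 mg/kg DFX on alternate days, 3 times a week, for 21 days. RNA of 1 tumor was hybridized to each one-color human 60-mer array. The tumor RNA could also hold transcripts of the mouse host, and the array was designed for human sequences. BxPC-3 is 1 cell line, the RNA was taken at 1 time after the last dose or vehicle, and no protein was measured on the arrays.

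HIF is a transcription factor made of an oxygen-regulated α subunit and a stable partner. In the presence of oxygen, the EGLN enzymes hydroxylate prolines of the α subunit, VHL binds the hydroxylated protein, and its ubiquitin ligase complex sends the subunit to the proteasome. HIF1AN hydroxylates an asparagine and thereby blocks the binding of the coactivators EP300 and CREBBP. These enzymes hold iron in their active site and use 2-oxoglutarate as a cosubstrate, which is why iron chelators are used in cell culture to stabilize HIF α proteins. The control acts on the protein, so a transcript level need not follow it. EGLN1 and EGLN3 are themselves known HIF target genes. The comparison asks whether the transcripts of this machinery differed between DFX-treated and vehicle-treated tumors.

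Where more than 1 probe carried the same symbol, the probes are shown because they lie at different places and need not read the same transcript. For all but HIF3A A_23_P142187, the first 30 of the 60 bases follow, 5′ to 3′ as the array files give them, in lower case, with hg19 coordinates of the whole probe.
EGLN3 A_33_P3256952, chr14:34393422-34393481, - strand: catagtaagggctcagtaaatacttgttga
EGLN3 A_21_P0008419, chr14:34596274-34596333, - strand: aaatctgccctcaaaagcacagaacaaatc
HIF1A A_33_P3231277, chr14:62211472-62211531, + strand: aatgctcagagaaagcgaaaaatggaacat
HIF1A A_24_P56388, chr14:62214845-62214904, + strand: gttgtcacagtaaatatcttgttttttcta
HIF3A A_33_P3338152, chr19:46815680-46815739, + strand: gccccctcatacccagtccccagatatttc
HIF3A A_23_P338534, chr19:46828821-46828880, + strand: caccgagaatgtgcacagactcttcacctc
ARNT2 A_33_P3366195, chr15:80873589-80873648, + strand: tctcagtccagcaagactcagtcatctccc
ARNT2 A_23_P83579, chr15:80890050-80890109, + strand: aaagaaagaaaggaaaagatttcataagca
The EGLN3 probes start 202852 bases apart, and the first and last HIF3A probes 30701 bases apart. The GC content of the full probes ran from 25.0% for HIF1A A_24_P56388 to 60% for HIF3A A_33_P3338152. Signals of different probes were therefore not compared with each other, and each probe was compared only between tumors. The exon or UTR in which each probe lies was not annotated here, nor was it tested whether both EGLN3 probes lie within the same transcript.

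The promoters of the prolyl hydroxylases are shown because 2 of these enzymes are HIF targets. The HIF core motif ACGTG, or its reverse complement CACGT, was searched in the 250 bases before each RefSeq gene start of GRCh38.p14. The 60 bases directly before the start are printed on the gene's strand, and capitals mark the motif.
EGLN1 promoter, chr1:231422288-231422347, - strand: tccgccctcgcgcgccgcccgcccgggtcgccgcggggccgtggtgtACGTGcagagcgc
EGLN2 promoter, chr19:40799131-40799190, + strand: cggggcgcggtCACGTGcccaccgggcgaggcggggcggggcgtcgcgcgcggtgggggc
EGLN3 promoter, chr14:33951075-33951134, - strand: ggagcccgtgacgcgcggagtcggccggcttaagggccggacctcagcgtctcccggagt
The motif of EGLN1 began 13 bases before the start. In EGLN2, the motif and its reverse complement overlapped in the palindrome CACGTG. The 8 members with a promoter entry had 12 windows, of which 2 held the motif, and 18.5% of 35116 RefSeq windows of this length held it. EGLN2 has another window, which held none. A match of 5 letters is a description of the sequence and no measured binding site.

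All 6 arrays lay on 1 slide, with the Control tumors in row 1 and the DFX tumors in row 2, so the treatment and the row cannot be told apart. Control 2 and DFX 1 were each alone in a slide column. With the slide column as a block, the difference therefore rests only on DFX 2 against Control 1 and DFX 3 against Control 3. The share of probes well above background ran from 50.3% in DFX 2 to 56.5% in Control 1, and no spot was saturated. Arrays correlated at 0.983 to 0.990 within the Control group, 0.984 to 0.987 within the DFX group and 0.980 to 0.988 between groups. A probe was tested when its signal differed from background with a p-value under 0.05 on all 6 arrays, which left 31807 of 50599 probes. A call below means an unadjusted limma p under 0.05, the significance level of the study. Over all tested probes, 2675 or 8.41% were called, 3.46% as higher in DFX and 4.95% as lower. None had an adjusted limma p under 0.05. The Kruskal-Wallis H test called 4927 at an unadjusted p under 0.05. With 3 tumors against 3 it does so only where the groups do not overlap, that is, for 15.5% of the tested probes.

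The members differed between the groups in both directions. Of the 15 probes, 13 were tested, covering all 10 genes. Among these, 7 had a higher mean in DFX and 6 a lower one, with a median log2 difference of 0.02 against -0.02 over all tested probes. limma called 1 of the 13, which is 7.69% against the 8.41% of all tested probes. That probe, of ARNT2, was not well above background on any array. The other 12 were well above background on all 6 arrays and 0 of them were called, where 7.31% of all such probes were. Regardless of sign, their median log2 difference was 0.19, against 0.13 over all such probes. The smallest unadjusted p among the 12 was 0.0623 for HIF1AN. Adjusted p-values of the 13 probes, by limma over all tested probes, ran from 0.514 to 0.988. Group values did not overlap for 3 of the 13 probes, or 23.1%, where 15.5% of all tested probes did not. These were EPAS1, which was higher in DFX, and ARNT and the dim ARNT2 probe, which were lower.

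**Figure D1:**
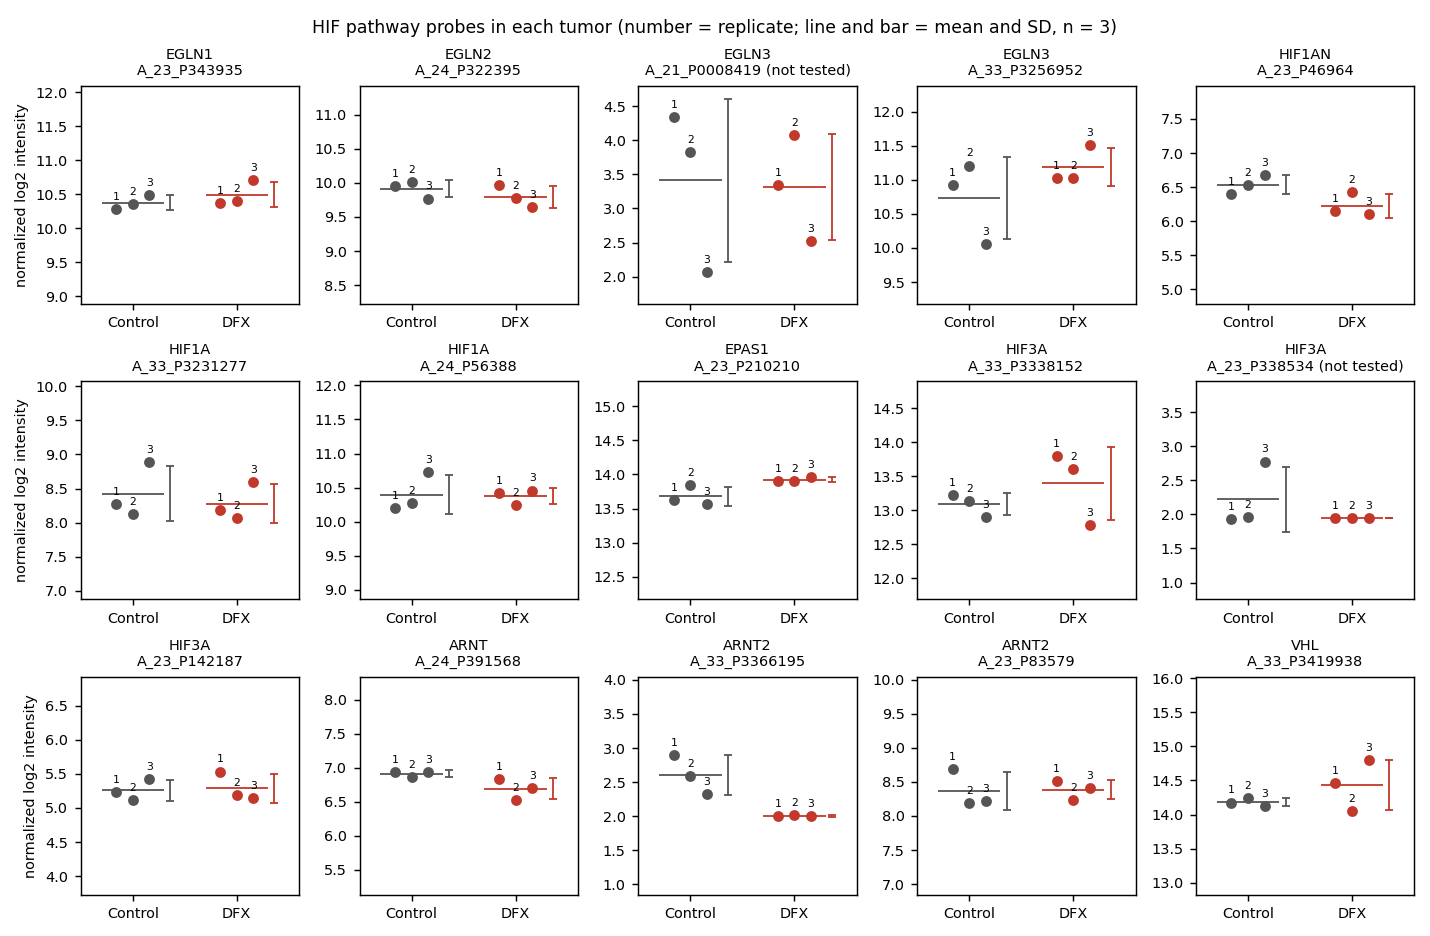
Normalized log2 intensity of each of the 15 member probes in each tumor, with Control in grey and DFX in red. Points are tumors numbered by replicate, lines are group means, bars are SDs (n = 3), and each panel spans the same log2 range. The groups overlap in most panels, and the spread between Control tumors is wide for EGLN3 A_33_P3256952, where Control 3 lies at 10.05.

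EGLN1 encodes PHD2, the main prolyl hydroxylase acting on HIF1A in normoxia. Its log2 intensity was 10.28, 10.35 and 10.49 in Control 1 to 3 and 10.37, 10.40 and 10.71 in DFX 1 to 3. The groups overlapped, and DFX 3 was the highest of the 6 tumors. The log2 difference, DFX minus Control, was 0.12 ± 0.14 (SE, limma adjusted p = 0.824), with a 95% interval from -0.22 to 0.45. On the linear scale that interval runs from 0.861- to 1.37-fold. Without DFX 3 the log2 difference was 0.01.

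EGLN2 encodes PHD1, an enzyme of the same family. The probe read 9.96, 10.01 and 9.77 in Control 1 to 3 and 9.96, 9.78 and 9.64 in DFX 1 to 3. The values of the groups interleaved, with DFX 3 the lowest. DFX minus Control was -0.12 ± 0.13 (SE, limma adjusted p = 0.814), and the 95% interval ran from -0.45 to 0.20.

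EGLN3 encodes PHD3, a hydroxylase strongly induced by hypoxia in many cell types. Probe A_33_P3256952 read 10.93, 11.21 and 10.05 in Control 1 to 3 and 11.03, 11.02 and 11.51 in DFX 1 to 3. Control 3 was the lowest of the 6 tumors and DFX 3 the highest, while the other 4 tumors lay within 0.3 of each other. The log2 difference was 0.46 ± 0.33 (SE, limma adjusted p = 0.723), the largest in size among the 12 bright probes, with an interval from -0.34 to 1.25. Without Control 3 it was 0.12, so that 1 tumor carried most of the mean difference. On the linear scale the interval ran from 0.793- to 2.39-fold, which makes EGLN3 the member with the widest bounds.

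The second EGLN3 probe, A_21_P0008419, was not tested because its signal failed the background filter in Control 3. It was well above background on 1 array, that of Control 1. Its log2 values ran from 2.07 in Control 3 to 4.34 in Control 1, with 3.34, 4.08 and 2.53 in DFX 1 to 3. The order of these tumors was unlike that of the bright probe, but whether the 2 probes read the same transcript was not tested.

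HIF1AN encodes FIH, the asparaginyl hydroxylase. Its log2 intensity was 6.40, 6.53 and 6.68 in Control 1 to 3 and 6.14, 6.42 and 6.10 in DFX 1 to 3. DFX 2 lay just above Control 1, and the other 2 DFX tumors lay below all Control tumors. The log2 difference was -0.32 ± 0.14 (SE, limma adjusted p = 0.610, unadjusted 0.0623), with an interval from -0.65 to 0.02. Without DFX 2 it was -0.42 with an unadjusted limma p of 0.0298. When only probes well above background on every array were tested, the p was 0.0489 at the same difference.

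P4HTM, a membrane-bound prolyl hydroxylase that also acts on HIF α proteins, belongs to the wider list of HIF regulators. Its log2 intensity was 8.83, 8.89 and 8.46 in Control 1 to 3 and 8.98, 8.97 and 8.87 in DFX 1 to 3. The difference of 0.22 ± 0.14 (SE) had an adjusted limma p of 0.708. None of the 5 hydroxylases that act on HIF was called, where 10.8% of all tested genes were. So few genes cannot be told apart from that share, and HIF1AN was called under 2 of 18 other settings.

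**Figure D2:**
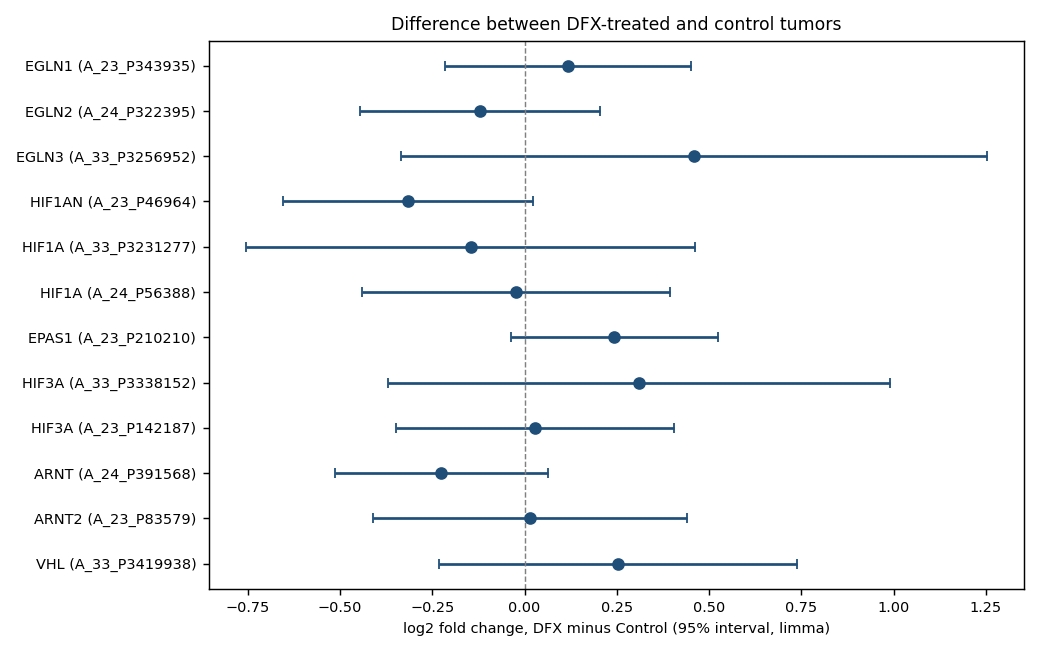
Log2 difference (DFX minus Control) of the 12 bright member probes (each well above background on every array), with the limma 95% interval. All 12 intervals include 0, and EGLN3 has the widest, from -0.34 to 1.25.

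HIF1A, the α subunit of HIF-1, was read by 2 probes. Probe A_24_P56388 gave 10.20, 10.27 and 10.72 in Control 1 to 3 and 10.42, 10.24 and 10.46 in DFX 1 to 3. Probe A_33_P3231277 gave 8.27, 8.12 and 8.89 in Control 1 to 3 and 8.18, 8.06 and 8.60 in DFX 1 to 3. On both probes Control 3 was the highest of the 6 tumors and DFX 2 and Control 2 were among the 3 lowest. The log2 differences were -0.02 ± 0.17 and -0.15 ± 0.25 (SE), with adjusted limma p-values of 0.980 and 0.883. Their intervals ran from -0.44 to 0.39 and from -0.75 to 0.46. Both turned positive without Control 3, to 0.14 and 0.08.

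The HIF1A probe A_24_P56388 was printed at 10 places on each array and so showed the error within an array. The SD of log2 signal over its 10 spots, before normalization, ran from 0.0441 in Control 3 to 0.0681 in DFX 3. The SD between tumors, after quantile normalization, was 0.29 in the Control group and 0.12 in the DFX group. By these values the spread between tumors of one group was larger than that between spots of one array, though only the former used normalized values.

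EPAS1 encodes HIF-2α, the α subunit with prominent roles in iron and erythropoietin regulation. The tumors read 13.63, 13.84 and 13.57 in Control 1 to 3 and 13.90, 13.90 and 13.97 in DFX 1 to 3. All DFX tumors lay above all Control tumors, by a margin of less than 0.1 over Control 2. The DFX tumors were close together, with an SD of 0.04 against 0.14 in the Control group. The log2 difference was 0.24 ± 0.11 (SE, limma adjusted p = 0.627, unadjusted 0.0777), or 1.18-fold, with an interval from -0.04 to 0.52. Under 6 of the 18 other settings its unadjusted p was under 0.05, and the log2 difference stayed between 0.19 and 0.34 over all 18.

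HIF3A encodes an α subunit with several splice forms, some of which counteract the others. Probe A_33_P3338152 read 13.22, 13.14 and 12.90 in Control 1 to 3 and 13.80, 13.60 and 12.79 in DFX 1 to 3. DFX 1 and DFX 2 were above all Control tumors, and DFX 3 was below all of them. DFX minus Control was 0.31 ± 0.28 (SE, limma adjusted p = 0.769), with an interval from -0.37 to 0.99. It was 0.61 without DFX 3, with an unadjusted limma p of 0.0101, and 0.11 without DFX 1 and 0.21 without DFX 2.

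The other HIF3A probes did not show this pattern. Probe A_23_P142187 gave 5.23, 5.12 and 5.43 in Control 1 to 3 and 5.54, 5.19 and 5.14 in DFX 1 to 3. Its log2 difference was 0.03 ± 0.15 (SE, limma adjusted p = 0.968). Probe A_23_P338534 was well above background on no array and was not tested, with log2 values of 1.93 to 2.78 in the Control tumors and 1.94 to 1.95 in the DFX tumors. The 2 tested probes therefore placed the tumors in unlike order, and DFX 1 was the highest on both.

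ARNT, or HIF-1β, is the constitutive partner of the α subunits. Its log2 intensity was 6.94, 6.86 and 6.94 in Control 1 to 3 and 6.83, 6.53 and 6.71 in DFX 1 to 3. All DFX tumors lay below all Control tumors, with DFX 1 and Control 2 separated by less than 0.1. The log2 difference was -0.23 ± 0.12 (SE, limma adjusted p = 0.650, unadjusted 0.105), with an interval from -0.51 to 0.06. The Kruskal-Wallis H test, which uses the order alone, gave an unadjusted p of 0.0495 for ARNT and EPAS1 alike, the smallest it reached with 3 tumors against 3.

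ARNT2, a relative of ARNT found mainly in brain and kidney, was read by 2 probes with unlike signals. Probe A_23_P83579 was well above background on all arrays and read 8.70, 8.19 and 8.22 in Control 1 to 3 and 8.51, 8.23 and 8.41 in DFX 1 to 3. The groups overlapped fully, and the log2 difference was 0.02 ± 0.17 (SE, limma adjusted p = 0.988), with an interval from -0.41 to 0.44.

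The ARNT2 probe A_33_P3366195 was the member that limma called, at an unadjusted p of 0.0103 (adjusted p = 0.514). The probe read 2.90, 2.59 and 2.32 in Control 1 to 3 and 2.0, 2.02 and 2.0 in DFX 1 to 3. It was well above background on none of the 6 arrays and positive and significant over background on the 3 Control arrays and on 0 of the 3 DFX arrays. No fold is given, since neither group was well above background. The call was lost under 5 of the other settings, including both scalings, both background alternatives and the slide column as a block, and was kept under 12.

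VHL encodes the substrate-binding subunit of the ligase that marks hydroxylated α subunits. The probe gave 14.18, 14.24 and 14.13 in Control 1 to 3 and 14.46, 14.05 and 14.79 in DFX 1 to 3. The Control tumors were within 0.2 of each other, while DFX 2 was the lowest and DFX 3 the highest of all 6. The SD was 0.06 in the Control group and 0.37 in the DFX group. The log2 difference was 0.25 ± 0.20 (SE, limma adjusted p = 0.740), with an interval from -0.23 to 0.74. It was 0.45 without DFX 2, with an unadjusted limma p of 0.0324, and 0.07 without DFX 3.

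**Figure D3:**
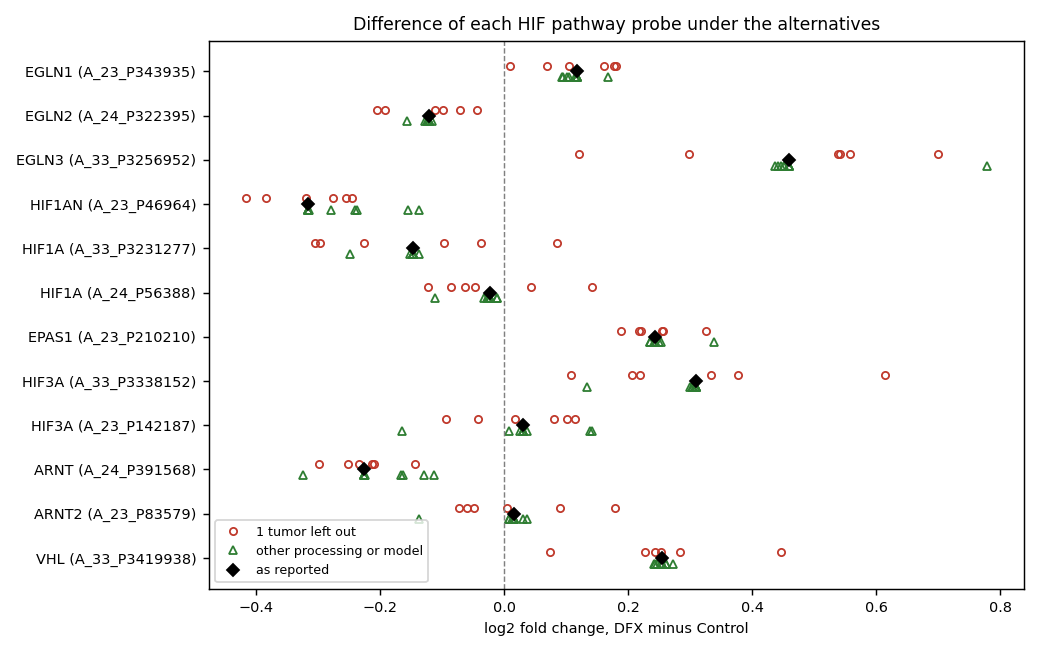
Log2 difference (DFX minus Control) of the 12 bright member probes as reported (black diamonds), with 1 tumor left out (red circles) and under other processing or models (green triangles). EPAS1 stays between 0.19 and 0.34 and EGLN3 spans 0.12 to 0.78, while both HIF1A probes, HIF3A A_23_P142187 and ARNT2 A_23_P83579 lie on both sides of 0.

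None of the partners of VHL in the ligase complex was called, where 10.8% of all tested genes were. So few genes cannot be told apart from that share. CUL2, the scaffold, read 7.50, 7.48 and 7.90 in Control 1 to 3 and 7.37, 7.23 and 7.43 in DFX 1 to 3. All DFX values lay below all Control values, and the log2 difference was -0.29 ± 0.15 (SE, limma adjusted p = 0.654). RBX1, the RING subunit, differed by -0.17 (limma adjusted p = 0.785). The adaptors TCEB1 and TCEB2, also called elongin C and B, differed by -0.11 (adjusted p = 0.769) and 0.10 (adjusted p = 0.857). For TCEB1, too, all DFX values lay below all Control values. Group values did not overlap for 15.5% of all tested probes.

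Of the 35 genes listed as regulators of HIF stability or as cofactors, 33 were tested and 3 were called (9.09%), 1 higher and 2 lower. Over all tested genes, counting a gene when any of its probes passed, 10.8% were called. The called genes were LIMD1, a scaffold that brings EGLN enzymes and VHL together, GNB2L1 or RACK1, which favors oxygen-independent degradation of HIF1A, and COPS5, a signalosome subunit that binds HIF1A. The median log2 difference of the list was -0.08, with 12 genes higher and 21 lower, against -0.01 over all tested genes. With 1 tumor left out it ran from -0.11 without Control 2 to -0.02 without Control 3. LIMD1 read 8.96, 8.93 and 8.74 in Control 1 to 3 and 9.43, 9.45 and 9.57 in DFX 1 to 3, without overlap. Its log2 difference was 0.61 ± 0.11 (SE, limma adjusted p = 0.513, unadjusted 0.00168). GNB2L1 fell by 0.37 ± 0.15 (adjusted p = 0.585) and COPS5 fell by 0.28 ± 0.11 (adjusted p = 0.581) on the log2 scale, and neither group pair overlapped. The number of calls in this list was 1 without Control 3 and 1 without DFX 1.

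The glycolytic HIF targets, which carry glucose through to lactate, were close to evenly split. Of 21 listed genes 20 were tested, and 1 was called (5.0% against 10.8% of all genes). It was PFKFB4, which makes and removes the activator of phosphofructokinase. It read 8.75, 9.41 and 8.54 in Control 1 to 3 and 9.37, 9.66 and 9.81 in DFX 1 to 3. Its log2 difference was 0.71 ± 0.26 (SE, limma adjusted p = 0.570), while DFX 1 lay below Control 2. There were 10 genes higher and 10 lower, and the median difference was -0.01. SLC2A1, the glucose transporter GLUT1, differed by 0.29 ± 0.16 (adjusted p = 0.661), PGK1 by -0.09 ± 0.11 (adjusted p = 0.826) and LDHA by -0.04 ± 0.15 (adjusted p = 0.952). Another bright LDHA probe, A_32_P44568, differed by -0.37 ± 0.16 (limma adjusted p = 0.610), with all DFX values below all Control values. Values given elsewhere for LDHA are of its brightest probe. PFKFB4 was not called without DFX 2, which left 0 calls in the list, and 2 genes were called without DFX 3.

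Among the other HIF targets, more genes had higher values in DFX. Of 40 listed genes 39 were tested, as BNIP3 did not pass the background filter. limma called 7 (17.9% against 10.8% of all genes), 6 as higher (4.45% of all genes were) and TFRC as lower (6.4% of all genes were). The median log2 difference was 0.19, with 33 genes higher and 6 lower, where 47.7% of all tested genes were higher. With 1 tumor left out the median ran from 0.08 without DFX 3 to 0.26 without DFX 1, and it was 0.12 without Control 3. No gene of this list had an adjusted p under 0.05, and the lowest was 0.514.

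VLDLR, a lipoprotein receptor, read 7.10, 7.08 and 6.26 in Control 1 to 3 and 7.62, 7.96 and 8.27 in DFX 1 to 3. It rose by 1.14 ± 0.29 on the log2 scale (SE, limma adjusted p = 0.514, unadjusted 0.00728), and the groups did not overlap. ANGPTL4, a secreted inhibitor of lipoprotein lipase, read 12.88, 13.25 and 12.38 in Control 1 to 3 and 13.32, 13.57 and 13.88 in DFX 1 to 3. It rose by 0.75 ± 0.26 (adjusted p = 0.562), and DFX 1 was less than 0.1 above Control 2. The ANGPTL4 call was lost without Control 1, Control 3, DFX 2 or DFX 3. TMEM45A, a membrane protein induced by hypoxia, rose by 0.47 ± 0.18 (adjusted p = 0.581), a call lost without Control 1, Control 3, DFX 1 or DFX 3. LOX, HMOX1 and FAM162A, the other called rises, were named after their values were seen.

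TFRC encodes the transferrin receptor, whose mRNA is also stabilized by iron regulatory proteins when iron is low. It read 11.94, 12.06 and 12.29 in Control 1 to 3 and 11.59, 11.70 and 11.78 in DFX 1 to 3. All DFX tumors were below all Control tumors, and TFRC fell by 0.41 ± 0.13 on the log2 scale (SE, limma adjusted p = 0.553, unadjusted 0.0223). The call was lost without Control 3, without DFX 1, without DFX 2 and with the slide column as a block.

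CA9, VEGFA, ADM and NDRG1 were not called. CA9, a carbonic anhydrase often used as a hypoxia marker, read 9.19, 9.77 and 8.74 in Control 1 to 3 and 9.67, 9.75 and 9.64 in DFX 1 to 3. Control 2 was the highest of the 6 and Control 3 the lowest, and the log2 difference was 0.46 ± 0.26 (SE, limma adjusted p = 0.671). The CA9 difference was 0.72 without Control 2 and 0.73 with the slide column as a block, with unadjusted limma p-values of 0.00932 and 0.0408. Control 2 does not enter the difference with the column block either. Without Control 3 the CA9 difference was 0.21. VEGFA, the angiogenic growth factor, differed by 0.24 ± 0.19 (adjusted p = 0.749) on its brightest probe. On another bright VEGFA probe, A_24_P12401, the difference was -0.01 ± 0.19 (limma adjusted p = 0.989). ADM, which encodes adrenomedullin, differed by 0.19 ± 0.34 (adjusted p = 0.891), and NDRG1, a stress-response gene, by 0.14 ± 0.20 (adjusted p = 0.862). The differences of ADM and NDRG1 were -0.14 and -0.04 without DFX 3.

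**Figure D4:**
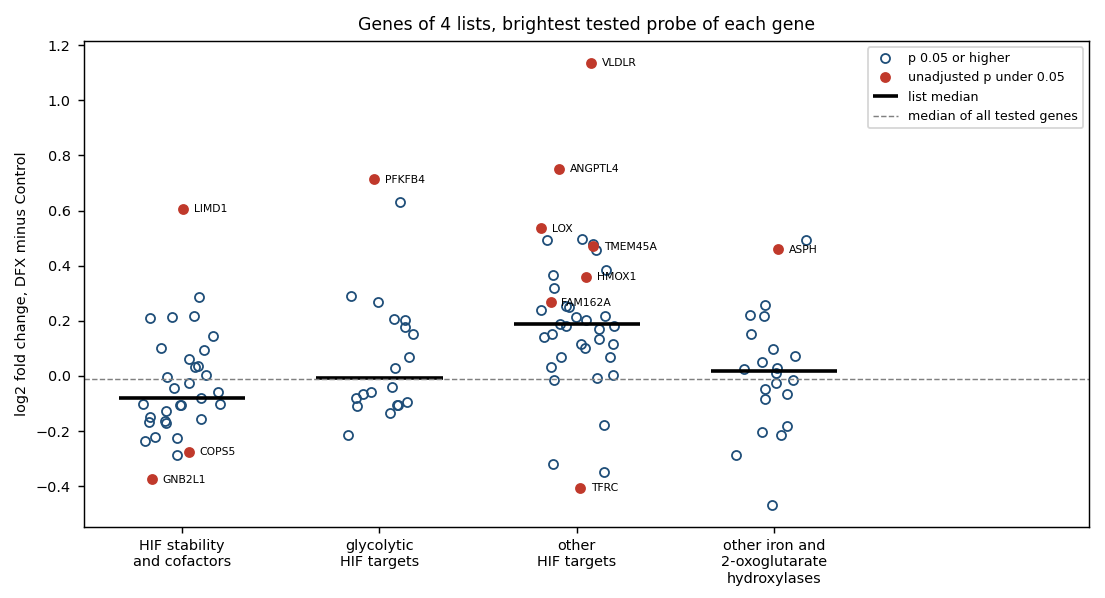
Log2 difference (DFX minus Control) of the genes of 4 lists, each by its brightest tested probe. Red points have an unadjusted limma p under 0.05 and are named, black lines are list medians, and the dashed line is the median of all tested genes (-0.01). The median lies at 0.19 for the other HIF targets and at -0.01 for the glycolytic targets.

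The values of the other HIF targets depended on single tumors. Control 3 held the lowest value of all 6 tumors for 21 of the 39 tested genes, where it did so for 21.3% of all tested genes. It was the lowest Control tumor for 24 of the 39, against 36.0% of all genes. Relative to the Control mean, the median of the list was -0.03, 0.19 and -0.15 in Control 1 to 3 and 0.06, 0.11 and 0.39 in DFX 1 to 3. Control 2 thus lay above DFX 1 and DFX 2. Without Control 3 the list held 2 calls and without Control 2 it held 10. It held 4 without Control 1 or without any 1 of the DFX tumors.

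**Figure D5:**
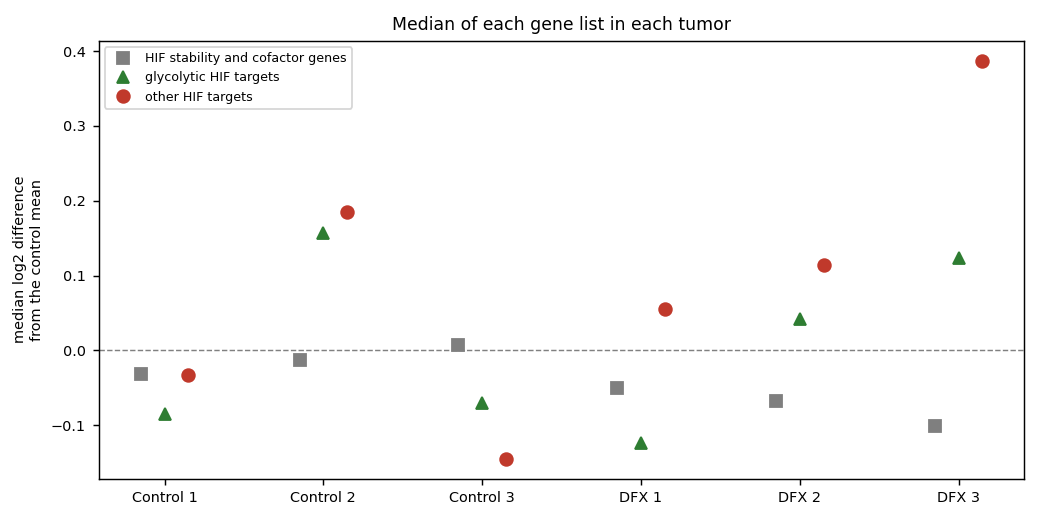
Median log2 difference from the mean of the 3 Control tumors, over the tested genes of 3 lists, in each tumor. For the other HIF targets (red circles), DFX 3 is highest at 0.39 and Control 3 lowest at -0.15, and Control 2 at 0.19 lies above DFX 1 and DFX 2.

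The tumors also differed in markers of cell types, and in bulk RNA fewer cells of a type and less RNA per cell cannot be told apart. The fibroblast, endothelial, leukocyte and red blood cell markers were listed for cells of the mouse host, but were read by probes for human sequences. Whether their signal came from mouse RNA or from the BxPC-3 cells was not tested. The calls below stand beside 10.8% of all tested genes called, 4.45% as higher and 6.4% as lower. Of 8 epithelial markers of BxPC-3, all tested, 3 or 37.5% were called, all as higher in DFX (KRT8 by 0.48, KRT18 by 0.27 and EPCAM by 0.43 on the log2 scale). By the brightest probe, 7 of the 8 were higher and KRT7 lower, and 1 other probe of KRT8 was lower in DFX by value. Their summed level, as log2, ran from 19.30 to 19.33 in the Control tumors and from 19.36 to 19.38 in the DFX tumors. The fibroblast markers had 8 of 10 tested, with LUM called higher and DCN and PDGFRA called lower (37.5%), and summed levels of 13.76 to 14.49 and 13.64 to 13.95. The endothelial markers had 6 of 10 tested, with PECAM1 called higher and TIE1 called lower (33.3%), and summed levels of 9.43 to 10.08 and 9.38 to 9.55. TEK, EMCN, ERG and ROBO4 did not pass the background filter. Of 8 leukocyte markers 6 were tested and 0 called, with summed levels of 10.96 to 11.18 and 11.02 to 11.27. Of 9 red blood cell markers 6 were tested and HBA2, HBD and 1 probe of SLC4A1 were called lower (50%), with summed levels of 12.76 to 13.01 and 11.71 to 11.77. The part of these markers in the HIF values was not tested.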

How the data were processed

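Per the labels, 6 tumors in 2 groups of 3 were measured on one-color Agilent arrays, and samples were grouped by their treatment label. The authors deposited linear intensities per spot, not normalized between arrays, with a p-value for each spot against background and detection flags, and also a table of their normalized intensities. The file headers name Agilent Feature Extraction 10.7.1.1, and the submitters' processing notes 9.5.1.1. The background-subtracted intensity was log2-transformed and quantile-normalized over 58717 non-control spots, 1398 flagged spot values were left out, and spots were averaged per probe. The filter kept probes whose median background p-value over spots was under 0.05 on each of the arrays. DFX and Control were tested against each other in limma 3.58.1 (lmFit, eBayes, R 4.3.3, df prior 2.04) without a block, adjusted by the Benjamini-Hochberg method over 31807 probes. The procedure was tested on simulated data. p-values measure the spread between 3 tumors a group, and the number of arrays limits the precision.

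A gene in a list was counted by any tested probe, and its direction and the medians were taken from its brightest probe. The text names all members, 14 preset genes of the lists (P4HTM, CUL2, RBX1, TCEB1, TCEB2, SLC2A1, PGK1, LDHA, CA9, VEGFA, ADM, BNIP3, NDRG1 and TFRC), and up to 3 called rises and 3 called falls per list without overlap. PFKFB4, LOX, HMOX1, FAM162A, TIE1, KRT7, PLOD2 and JMJD6 were named after their values were seen. Members and lists were chosen with earlier results of these data known. Alternatives covered normalization, background, filters, flags, the deposited table, the test, blocks and each tumor left out. Coordinates of probes were read from the array annotation (hg19), and promoters are from RefSeq (GRCh38.p14). Of the genes with several probes, the sequence of 1 probe is not reported here.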

Additional observations from a re-analysis of the deposited data

How the results depend on the processing

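Over all tested probes the 2675 calls became 4927 by the Kruskal-Wallis H test and 1418 with the slide column as a block. They lay between 1889 and 2717 with 1 tumor left out. A Kruskal-Wallis call here is an unadjusted p, reached only where the groups did not overlap. The column block takes Control 2 and DFX 1 out of the difference. Among members, the 1 call became 0 under 75th percentile scaling, median scaling and the column block. It became 2 without the filter on dim probes or without moderation of the variance, and 3 by the Kruskal-Wallis H test. Under normexp and without background correction the count stayed at 1, but the called probe was that of EPAS1 in place of ARNT2. With the filter on well above background it was that of HIF1AN. With 1 tumor left out the number of member calls was 1 to 3, with 2 without Control 2, 3 without DFX 2 and 2 without DFX 3. In the list of HIF stability and cofactor genes, the 3 calls became 1 under both scalings, 6 under normexp and without background correction, 5 without the filter and with the filter on well above background, 11 by rank (Kruskal-Wallis H test), and 0 with the column block. They were 1 to 3 with 1 tumor left out. In the glycolytic list, the 1 call became 3 under 75th percentile scaling, normexp, no background correction and the filter on well above background, and 2 without the filter or by the Kruskal-Wallis H test. It was 0 to 2 with 1 tumor left out. The 7 calls among other HIF targets became 4 without moderation and were 2 to 10 with 1 tumor left out. The cause of these changes was not tested.

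With the column block the differences of HIF3A A_23_P142187, ARNT2 A_23_P83579 and LDHA changed sign, to -0.17, -0.14 and 0.14. With 1 tumor left out, the log2 difference ranged from -0.12 to 0.14 for HIF1A A_24_P56388, from -0.30 to 0.085 for HIF1A A_33_P3231277, from -0.093 to 0.11 for HIF3A A_23_P142187, from -0.073 to 0.18 for ARNT2 A_23_P83579, from -0.15 to 0.052 for LDHA, from -0.14 to 0.45 for ADM and from -0.042 to 0.28 for NDRG1. EGLN1, EGLN2, EGLN3, HIF1AN, EPAS1, ARNT and VHL and the first HIF3A probe kept their direction under all alternatives run.

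The replicate numbers did not pair the tumors, as deviations of same-numbered tumors correlated at 0.0274, 0.0267 and 0.0158. With the replicate block the members kept 1 call, all tested probes held 2419, the glycolytic list 2 and the other HIF targets 4.

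Depth limits the ARNT2 probe A_33_P3366195, HIF3A A_23_P338534 and EGLN3 A_21_P0008419, which were near background. For the 12 bright probes, the half-width of the 95% interval ran from 0.28 to 0.79 on the log2 scale.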

Other observations

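Iron and 2-oxoglutarate also serve hydroxylases outside oxygen sensing, which act on collagen, nucleic acids, histones and small metabolites. Of 25 such genes listed, 22 were tested, and P4HA3, TET1 and TET3 did not pass the background filter. limma called 1 (4.55% against 10.8% of all tested genes), and the median log2 difference was 0.02, with 12 genes higher and 10 lower. The call was ASPH, an endoplasmic reticulum enzyme that hydroxylates aspartate and asparagine in EGF-like domains. Its brightest probe, A_24_P295245, read 12.20, 12.29 and 11.86 in Control 1 to 3 and 12.59, 12.50 and 12.64 in DFX 1 to 3. It rose by 0.46 ± 0.14 on the log2 scale (SE, limma adjusted p = 0.544, unadjusted 0.0190), and the groups did not overlap. The other 2 tested probes of ASPH, A_24_P18105 and A_23_P216094, differed by -0.03 and 0.30 and were not called.

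Among the collagen-modifying enzymes of that list, PLOD2, a lysyl hydroxylase that is also a HIF target, read 11.13, 11.60 and 10.95 in Control 1 to 3 and 11.57, 11.57 and 12.02 in DFX 1 to 3, with an adjusted limma p of 0.613. Control 2 lay above DFX 1 and DFX 2. JMJD6, a lysyl hydroxylase of splicing factors, had the lowest difference of the list, at -0.47 in log2, and its limma adjusted p was 0.643. JMJD6 read 8.25, 8.70 and 9.04 in Control 1 to 3 and 8.37, 8.30 and 7.93 in DFX 1 to 3.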
